A study of Mus musculus with 24 samples.

Results

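The Hox cluster genes were followed in messenger RNA libraries of mouse yolk sacs and whole embryos at embryonic day 9.5, in 2 Setd2 mutant lines. Members were the rows present in both deposited gene tables whose symbol is Hoxa, Hoxb, Hoxc or Hoxd followed by a paralogue number. The rule took 39 of 55421 genes, and it used no measured value. The 12 groups were Setd2-null homozygous (HO), heterozygous (HE) and wild-type (WT) yolk sacs, Setd2-CD HO, HE and WT yolk sacs, and the same 6 genotypes as embryos, with 2 libraries in each group and 24 in all. CD stands for catalytic dead, the series title speaks of a patient-derived Setd2 mutation, and each line has its own WT group. Every mouse was C57BL/6. The labels give neither the nature of the null allele nor the residue changed in the CD line, and they do not say that replicates are separate animals, so a p-value reflects only how far these libraries spread, which may be technical.

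Hox genes encode homeodomain transcription factors that give cells their position along the head-to-tail axis. In mammals they lie in 4 clusters, and genes at the same place in different clusters, called paralogues, carry the same number. Low-numbered paralogues switch on first and reach furthest forward, into the hindbrain. High-numbered ones switch on later, in the trunk, the limb buds and the tail, so a set of Hox levels in a whole embryo also follows how far the axis has extended. Polycomb proteins keep unused Hox genes silent, Trithorax-type methyltransferases keep active ones on, and retinoic acid, Wnt, Fgf and caudal (Cdx) signals switch them on. Setd2 writes the H3K36me3 mark of histone H3 along the bodies of transcribed genes. The yolk sac, an extraembryonic layer of visceral endoderm over mesoderm that makes the first blood, lies outside the axis.

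On mm10 the Hoxa cluster holds 11 members on the minus strand of chr6:52155590-52260880. The Hoxb cluster holds 10 on the plus strand of chr11:96194316-96368256. The Hoxc cluster holds 9 on the plus strand of chr15:102921103-103036852, and the Hoxd cluster holds 9 on the plus strand of chr2:74668310-74765142. With a filter on low counts, 21 members were tested in yolk sacs and 35 in embryos. Those not tested in embryos were Hoxb13, Hoxc12, Hoxc13 and Hoxd12, and the yolk sac kept 8 members of Hoxb, 7 of Hoxc, 4 of Hoxa and 2 of Hoxd. A member that passes such a filter through 1 group only had to differ, so counts below refer to members tested and not to all 39. Some members share exonic bases with neighbours: 9 with a gene on the same strand and 10 with an antisense gene. For Hoxd3 the same-strand share was 62.3% and for Hoxd4 it was 52.3%, largely with each other, and 52.9% of Hoxb3 lies opposite Hoxb3os. How the authors' counting treated strand, and reads shared between genes of the same strand, is not known from the sources at hand. These 3 levels are therefore uncertain.

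Total counts per library ran from 16400137 to 22113787 in yolk sacs and from 23414255 to 27674831 in embryos. Hox genes took 734 to 1836 of these counts in yolk sacs and 13356 to 18445 in embryos. Levels are given as FPKM, read counts divided by gene length and by the library's TMM-scaled total. Setd2 itself stood at 8.68 and 9.68 FPKM in null HO embryos, against 21.6 and 21.3 FPKM in null WT embryos, and at 20.3 and 19.8 FPKM in CD HO embryos, against 20.8 and 23.7 FPKM in CD WT embryos. In yolk sacs it stood at 7.03 and 7.34 FPKM in null HO, 10.6 and 11.1 FPKM in null HE, and 9.53 and 10.6 FPKM in null WT, so null HE yolk sacs were not below WT. In CD yolk sacs it stood at 17.9 and 18.1 FPKM in HO, 15.8 and 17.6 FPKM in HE, and 16.6 and 17.7 FPKM in WT, so CD WT yolk sacs lay above null WT yolk sacs (0.77 on the log2 scale, edgeR adjusted p = 0.00895). In HE embryos it stood at 15.7 and 14.6 FPKM in the null line and 20.7 and 21.5 FPKM in the CD line. Visceral endoderm markers summed to 6550 to 10200 FPKM over the yolk sac libraries. In embryos they summed to 159 FPKM in CD WT replicate 2 and to 4.62 to 28.4 FPKM in the other 11 libraries. Null HO replicate 2 carried 13.6 FPKM of the trophoblast gene Prl3d1, which no other embryo library held above 1.23 FPKM, and 128 FPKM of summed primitive erythroid markers, against 1770 FPKM in null HO replicate 1. By Xist and Y-linked transcripts, both CD HO embryos were female and both CD WT embryos male, with the reverse in CD yolk sacs, so HO against WT in that line coincides with sex within a tissue. CD HE embryos were 1 of each sex, and 1 CD HE yolk sac library held both kinds of transcript. In the null line both WT embryos were female and both HE embryos male, with 1 of each among HO embryos. Counts of Hox genes in HO against WT embryos are given with and without CD WT replicate 2 and null HO replicate 2.

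WT embryos held RNA of every paralogue number, highest at number 9 and lowest at number 12. Paralogue sums of the null WT embryos were 8.66 and 8.53 FPKM for number 2, 31.4 and 31 FPKM for number 4, and 29.1 and 30.4 FPKM for number 6. They reached 56.6 and 56.9 FPKM for number 9, and were 19.6 and 20.8 FPKM for number 10, 3.35 and 3.81 FPKM for number 11, 0.107 and 0.06 FPKM for number 12, and 3.02 and 3.17 FPKM for number 13. The highest single gene was Hoxb9, a thoracic and forelimb-level gene, at 34.6, 34.1, 36.3 and 51.1 FPKM in the 4 WT embryos. In the null WT embryos Hoxc6 (13.6 and 15.6 FPKM) and Hoxc4 (12.8 and 13.7 FPKM) came next, with values that overlap. In the CD WT embryos Hoxc4 (17.3 and 21.4 FPKM), Hoxb7 (14.8 and 19.4 FPKM), Hoxc8 (11.3 and 20.1 FPKM) and Hoxc6 (15.6 and 14.7 FPKM) came next by their means, and among these 4 the one pair that does not overlap is Hoxc4 and Hoxc6. Hoxb13 had no count in any WT embryo. By cluster, the null WT embryos held 94.4 and 94.8 FPKM of Hoxb, 59.7 and 59.1 FPKM of Hoxa, 59 and 63.4 FPKM of Hoxc, and 31.8 and 32.9 FPKM of Hoxd.

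**Figure D1:**
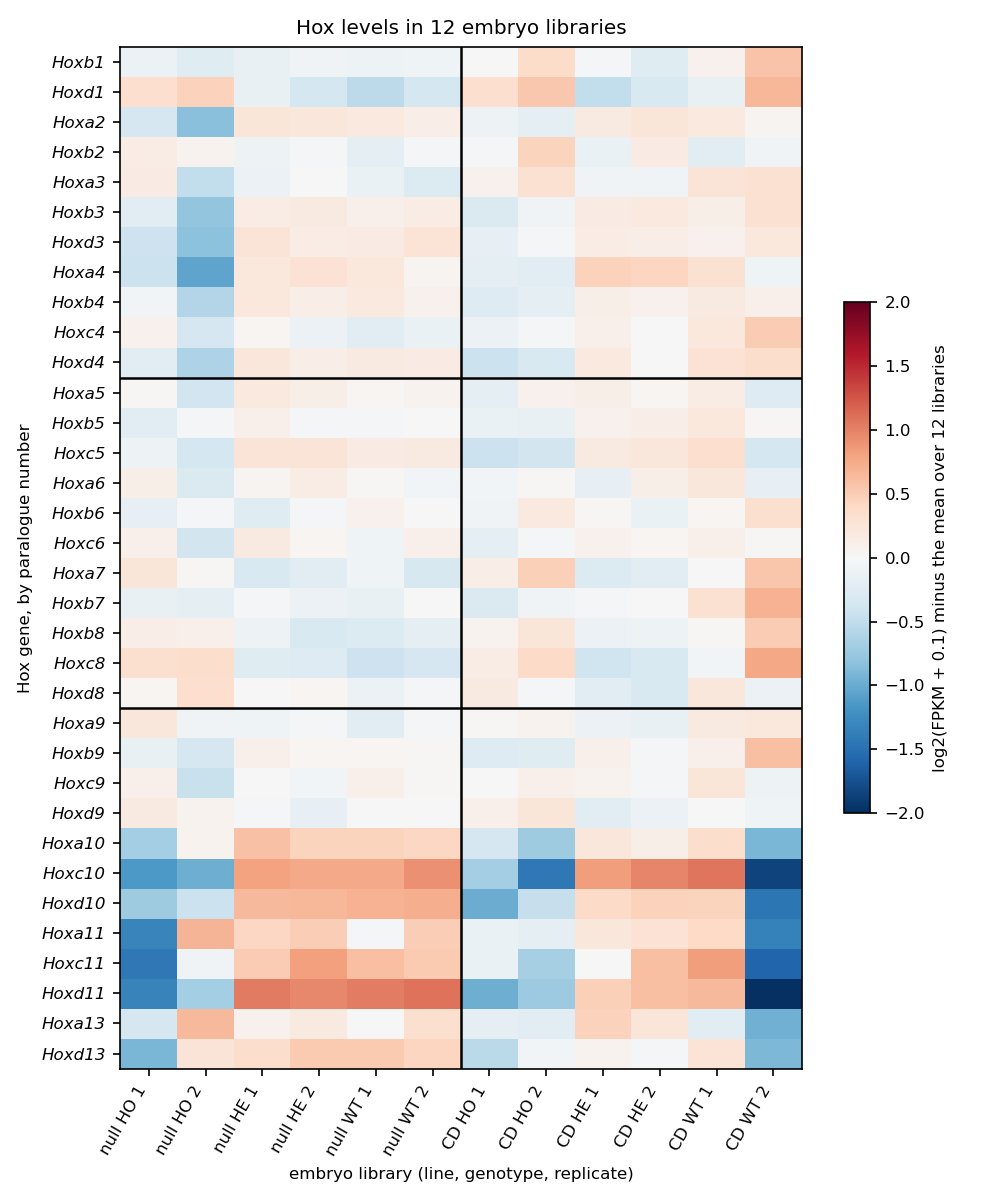
Levels of 34 tested Hox genes (rows, by paralogue number; lines part numbers 1 to 4, 5 to 8 and 9 to 13) in the 12 embryo libraries (columns; HO, HE, then WT in each line), as log2(FPKM + 0.1) minus the gene's mean over the libraries. HO libraries of both lines are below HE libraries for Hoxc10 and Hoxd10, and CD WT replicate 2 is the lowest library for Hoxc10, Hoxd10 and Hoxd11.

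In null HO embryos Hox genes changed in both directions: Hoxd1 and Hoxc8 were among those that rose, and genes of the numbers 2 to 4, 10 and 11 fell. Of 35 tested members 3 were higher and 9 lower than in null WT embryos, against a background of 32.7% of all genes called (16.2% higher and 16.5% lower). The share of Hox genes called was close to that of all genes. Of the 12 tested members numbered 1 to 4, 2 rose and 6 fell. Of the 11 numbered 5 to 8, 1 rose and 0 fell, and of the 12 numbered 9 to 13, 0 rose and 3 fell. Hoxd held 4 of the 9 falls. The median log2 fold change was −0.15 over the Hox genes and 0.015 over all genes. HO and WT libraries did not overlap for 8 members that were higher and 18 that were lower, against backgrounds of 33.3% and 31.9%. In whole-embryo RNA, fewer cells of a type and less RNA per cell cannot be told apart. Mitochondrial genes took 1.56% and 1.62% of counts in null HO embryos and 1.46% and 1.52% in CD HO embryos, against 1.91% to 2.21% in the 8 HE and WT embryos of both lines, and the part of this difference in the Hox values was not tested.

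The members that rose included an anterior gene and a trunk gene. Hoxd1, of paralogue number 1, had 8.53 and 9.3 FPKM in null HO embryos, 6.09 and 5.25 FPKM in null HE and 4.65 and 5.25 FPKM in null WT, and its log2 fold change against WT was 0.85 (SE 0.21, edgeR adjusted p = 0.00912). Each HO library was above each HE and WT library. Its paralogue Hoxb1 had 9.88 and 9.05 FPKM in null HO embryos, against 9.98 and 10.1 FPKM in null WT, and did not pass the test. Hoxc8, which marks brachial to thoracic levels, had 14.6 and 15 FPKM in null HO embryos, against 8.73 and 9.25 FPKM in null WT (0.72, SE 0.19, edgeR adjusted p = 0.0128). Its paralogue Hoxb8 had 12.6 and 12.3 FPKM in null HO embryos, against 9.51 and 10 FPKM in null WT, and was not called.

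The falls among low numbers covered genes that pattern the hindbrain, branchial arches and neck. Hoxa2, which gives the second branchial arch its identity, had 5 and 3.5 FPKM in null HO embryos, against 7.29 and 7 FPKM in null WT (−0.75, SE 0.15, edgeR adjusted p = 0.00239). Hoxd3 had 1.95 and 1.45 FPKM, against 2.97 and 3.21 FPKM in null WT (−0.86, SE 0.14, edgeR adjusted p = 0.000795), and Hoxd4, whose reads overlap it, had 2.69 and 2.02 FPKM, against 3.59 and 3.55 FPKM in null WT (−0.60, SE 0.15, edgeR adjusted p = 0.00846). In each of these genes both HO libraries lay below both WT libraries, with replicate 2 the lower. Hoxa4, Hoxb3 and Hoxb4 fell by 0.86, 0.61 and 0.44 on the log2 scale (SE 0.21, 0.16 and 0.14; edgeR adjusted p = 0.00798, 0.0117 and 0.0275). Hoxa4 stood at 2.25 and 1.42 FPKM in null HO embryos, against 3.54 and 3.17 FPKM in null WT. Paralogue number 4 as a whole summed to 30.6 and 21.9 FPKM in null HO embryos, against 31.4 and 31 FPKM in null WT. Without null HO replicate 2, the numbers 1 to 4 held 2 rises and 2 falls, and the numbers 9 to 13 held 1 rise and 5 falls (background 25.2%, with 11.6% higher and 13.6% lower). Hoxb3 and Hoxb4 were then at −0.37 and −0.21 and were not called.

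The deepest falls were in paralogue numbers 10 and 11. Hoxc10, a gene of lumbar motor neurons and hindlimb, had 2.81 and 3.19 FPKM in null HO embryos, 11.2 and 10.8 FPKM in null HE and 10.8 and 12.1 FPKM in null WT (−1.93, SE 0.59, edgeR adjusted p = 0.025). Hoxd10 had 1.4 and 1.73 FPKM in null HO embryos, against 3.87 and 3.98 FPKM in null WT (−1.33, SE 0.41, edgeR adjusted p = 0.0264). Hoxd11, which acts in the forearm and kidney together with Hoxa11, had 0.192 and 0.358 FPKM in null HO embryos, against 1.4 and 1.47 FPKM in null WT (−2.39, SE 0.66, edgeR adjusted p = 0.015). HO libraries lay below HE and WT libraries for all 3 genes. Hoxa11 behaved unevenly, with 0.32 and 1.58 FPKM in null HO embryos, against 0.929 and 1.38 FPKM in null WT, and was not called. Paralogue number 10 summed to 6.4 and 8.67 FPKM in null HO embryos, against 19.6 and 20.8 FPKM in null WT, while number 9 summed to 56 and 47.7 FPKM, against 56.6 and 56.9 FPKM in null WT. Beside these genes, summed somite markers stood at 24.9 and 13.1 FPKM in null HO embryos, against 79.8 and 78.5 FPKM in null WT, with 8 of 8 lower, and summed tail bud markers at 78.6 and 79.2 FPKM, against 66.3 and 68.7 FPKM in null WT, with 3 of 10 higher and 2 lower. Summed neural tube markers stood at 73.8 and 56.1 FPKM in null HO embryos, against 92.8 and 85 FPKM in null WT, with 2 of 10 higher and 6 lower and a median of −0.74. Over all genes of this comparison 16.2% were higher and 16.5% lower. Summed trophoblast markers stood at 29.3 and 59.9 FPKM in null HO embryos, against 18.4 and 22 FPKM in null WT. The part of these other cell types in the Hox differences was not tested.

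Hoxa2 and Hoxd3 kept their calls under all 12 alternative settings, at −1.03 to −0.53 and −1.09 to −0.68. Hoxc10 lost its call in 5 of them while its value stayed at −2.04 to −1.85. Hoxd10 lost its call in 4 (−1.5 to −1.18) and Hoxd11 in 3 (−2.91 to −2). Hoxb4 lost its call in 4 (−0.74 to −0.21) and Hoxb3 in 3 (−0.95 to −0.37), with values that moved more. Without null WT replicate 1, 1 member was higher and 4 lower (background 18.8%), and without null WT replicate 2, 2 were higher and 4 lower (background 18.1%), so calls over all genes fell as well. Set against null HE embryos instead of null WT, 3 members were higher and 10 lower, with Hoxc5 added (background 30.3%, with 15.2% higher and 15.1% lower).

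**Figure D2:**
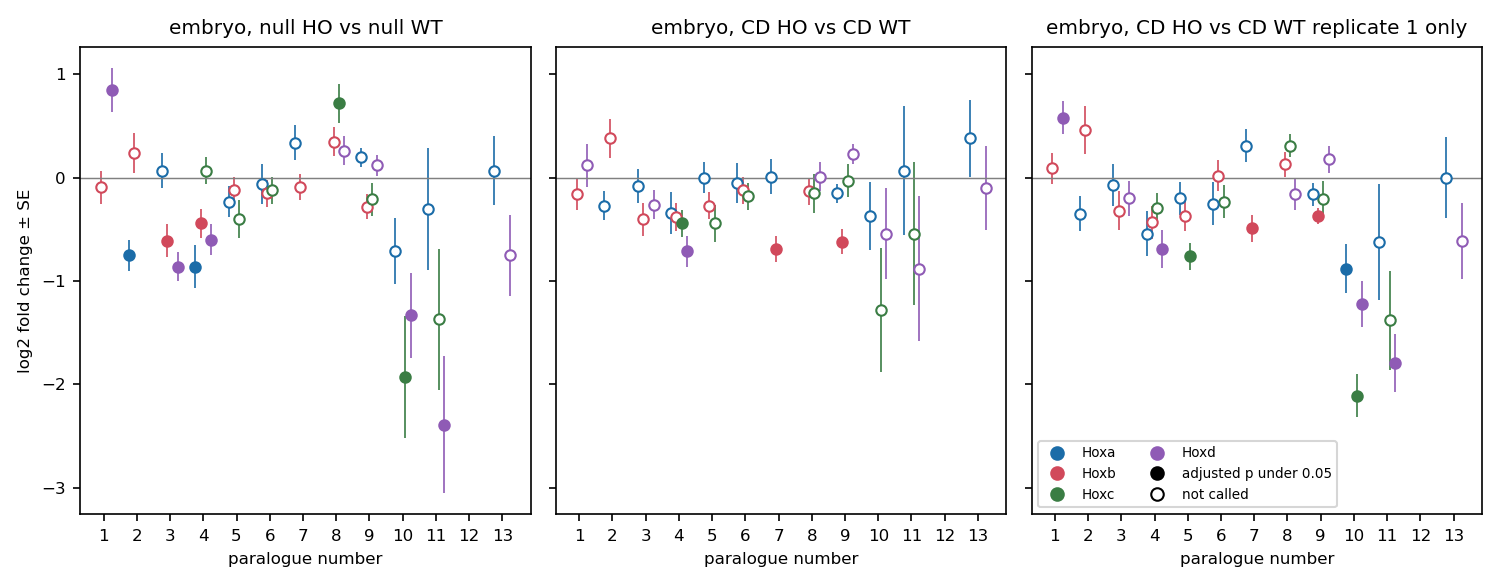
Log2 fold change with its standard error (vertical axis) of 34 tested Hox genes against paralogue number (horizontal axis; colours give the cluster, filled points passed the adjusted threshold) in null HO against WT embryos, CD HO against WT embryos, and CD HO embryos against CD WT replicate 1 alone. The 3 called genes of numbers 10 and 11 lie between −1.33 and −2.39 in the null line, and Hoxc10, Hoxd10 and Hoxd11 lie between −1.22 and −2.11 in the last panel.

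The Hoxd cluster carried both a rise, of Hoxd1, and the largest fall, of Hoxd11, so the 250 bases before the starts of 4 of its called genes are shown from RefSeq's GRCm38.p6 promoters, on the plus strand of chromosome 2. Hoxd3, which shares most of its reads' exons with Hoxd4, is not shown. Capitals mark TTTAT or its reverse complement ATAAA, the core of caudal (Cdx) sites, and AGGTCA or its reverse complement TGACCT, the half-site of retinoic acid receptors. These motifs were sought on both strands, and neighbouring matches may overlap. The windows are Hoxd1 chr2:74762730-74762979, Hoxd4 chr2:74721728-74721977, Hoxd10 chr2:74691641-74691890, and for the 2 listed starts of Hoxd11 chr2:74679308-74679557 and chr2:74682073-74682322.
Hoxd1: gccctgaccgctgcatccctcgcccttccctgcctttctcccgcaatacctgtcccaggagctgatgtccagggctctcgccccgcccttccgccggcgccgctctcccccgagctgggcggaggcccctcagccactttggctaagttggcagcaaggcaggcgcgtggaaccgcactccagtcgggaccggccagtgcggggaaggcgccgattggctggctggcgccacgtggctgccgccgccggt
Hoxd4: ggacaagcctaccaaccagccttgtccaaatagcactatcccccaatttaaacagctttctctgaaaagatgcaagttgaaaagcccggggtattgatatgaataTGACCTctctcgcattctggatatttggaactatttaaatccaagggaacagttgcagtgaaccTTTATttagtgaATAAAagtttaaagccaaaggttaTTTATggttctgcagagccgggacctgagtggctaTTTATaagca
Hoxd10: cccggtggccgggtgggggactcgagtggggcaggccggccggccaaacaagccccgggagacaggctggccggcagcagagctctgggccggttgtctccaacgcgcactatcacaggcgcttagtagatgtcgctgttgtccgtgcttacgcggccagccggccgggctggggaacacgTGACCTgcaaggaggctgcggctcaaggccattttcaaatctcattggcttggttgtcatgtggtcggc
Hoxd11 first start: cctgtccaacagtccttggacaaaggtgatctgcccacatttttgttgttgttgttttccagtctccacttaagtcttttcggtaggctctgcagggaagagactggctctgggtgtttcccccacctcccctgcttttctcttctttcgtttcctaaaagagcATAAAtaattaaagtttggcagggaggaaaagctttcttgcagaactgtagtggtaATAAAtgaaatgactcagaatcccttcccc
Hoxd11 later start: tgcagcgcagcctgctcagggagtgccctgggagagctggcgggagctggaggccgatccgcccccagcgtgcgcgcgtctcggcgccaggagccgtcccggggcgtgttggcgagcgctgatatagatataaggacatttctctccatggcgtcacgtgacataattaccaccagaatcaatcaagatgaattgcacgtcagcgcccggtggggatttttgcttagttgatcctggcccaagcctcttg
The Hoxd4 window held 4 TTTAT matches and 1 AGGTCA match, the Hoxd10 window 1 AGGTCA match, and the first Hoxd11 window 2 TTTAT matches, while the Hoxd1 window and the later Hoxd11 window held neither. GC content was 71.6% before Hoxd1 and 40.4% before Hoxd4. TTTAT was present in 37.3% of 32851 RefSeq promoters and AGGTCA in 4607 of them, and of the 22 Hox genes with a listed promoter 8 held TTTAT and 6 held AGGTCA. The RefSeq and GENCODE starts of Hoxd4 lie 10049 bases apart, so the window shown may not be the start used here.

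In CD HO embryos 0 members were higher and 4 lower than in CD WT embryos, of 35 tested, against a background of 16.1% called (6.92% higher and 9.14% lower). These were Hoxb7, Hoxb9, Hoxd4 and Hoxc4. Hoxb7, a trunk gene, had 9.77 and 11.4 FPKM in CD HO embryos, 11.6 and 11.9 FPKM in CD HE and 14.8 and 19.4 FPKM in CD WT (−0.69, SE 0.13, edgeR adjusted p = 0.00444). Hoxb9 had 28.2 and 28.5 FPKM in CD HO embryos, against 36.3 and 51.1 FPKM in CD WT (−0.62, SE 0.12, edgeR adjusted p = 0.00515). Hoxd4 had 2.3 and 2.53 FPKM in CD HO embryos, against 3.87 and 4.04 FPKM in CD WT (−0.71, SE 0.15, edgeR adjusted p = 0.00689). In these 3 genes both HO libraries lay below both WT libraries, and the 2 WT libraries differed from each other in Hoxb7 and Hoxb9. Hoxc4 fell by 0.44 (SE 0.13, edgeR adjusted p = 0.0414) and lost its call in 7 of 12 alternatives, over which it ran from −0.58 to −0.13. Without CD WT replicate 2 it was at −0.29 (edgeR adjusted p = 0.199). With sex as a term edgeR called 0 members (background 5.79%), with 5 under an unadjusted p of 0.05. Without CD HO replicate 1 the median log2 fold change over the 35 Hox genes was −0.11.

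The CD comparison turned on CD WT replicate 2. Hoxc10 had 3.93 and 2.31 FPKM in CD HO embryos and 11.4 and 12.6 FPKM in CD HE, against 13.5 FPKM in CD WT replicate 1 and 1.7 FPKM in CD WT replicate 2. Hoxd11 had 0.273 and 0.346 FPKM in CD HO embryos, against 1.06 and 0.0692 FPKM in CD WT, and Hoxc8 had 13 and 15.3 FPKM, against 11.3 and 20.1 FPKM in CD WT. CD WT replicate 2 lay below both CD HO libraries for Hoxc10 and Hoxd11 and above both for Hoxc8 and, at 10.8 FPKM, for Hoxd1. Visceral endoderm markers were lower in CD HO than in CD WT embryos for 9 of 9 tested, and for 7 of 9 without CD WT replicate 2. Of 10 neural tube markers 1 was higher and 4 lower in CD HO embryos, and of 8 somite markers 0 were higher and 7 lower. With CD WT replicate 2 kept, 6.92% of all genes were higher and 9.14% lower. The part of these cell types in the Hox differences of the CD line was not tested.

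Without that library 2 members were higher and 8 lower (background 14.7%, with 6.02% higher and 8.67% lower). Hoxd1 rose by 0.58 (SE 0.16, edgeR adjusted p = 0.0311). Hoxc10 fell by 2.11 (SE 0.21, edgeR adjusted p = 4.85e-05), Hoxd11 by 1.79 (SE 0.28, edgeR adjusted p = 0.00125), Hoxd10 by 1.22 (SE 0.22, edgeR adjusted p = 0.00335) and Hoxa10, a lumbar gene, by 0.88 (SE 0.24, edgeR adjusted p = 0.027). Hoxc5, Hoxd4, Hoxb7 and Hoxb9 fell by 0.76, 0.69, 0.49 and 0.37. The numbers 9 to 13 then held 5 of the 8 falls. With CD WT replicate 1 left out instead, 1 member was higher and 5 lower (background 9.47%). The numbers 9 to 13 then had a median log2 fold change of 0.74, against −0.62 without CD WT replicate 2. Hoxd11 was at 2.13 (edgeR adjusted p = 0.0164), and Hoxc10 and Hoxd10 were at 0.88 and 0.8 (edgeR adjusted p = 0.0637 and 0.101), so the sign of these 3 genes turned with the WT library used. In each of these fits 1 WT library stands for its group, and its spread is taken from the other groups.

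CD HE embryos gave a second set of control libraries. Against them 5 members were higher in CD HO embryos (among them Hoxd1 0.85, Hoxc8 0.63, Hoxa7 0.57 and Hoxd9 0.34) and 4 lower (Hoxc10 −1.93, Hoxa4 −0.67, Hoxc5 −0.61 and Hoxd4 −0.48), with a background of 22.1% (10.2% higher and 11.9% lower). Hoxd1 had 8.53 and 9.83 FPKM in CD HO embryos, against 4.75 and 5.42 FPKM in CD HE (SE 0.21, edgeR adjusted p = 0.0137). Of the 4 genes called against CD WT only Hoxd4 was called against CD HE. Hoxb7 was at −0.15, Hoxb9 at −0.28 and Hoxc4 at −0.13 (edgeR adjusted p = 0.439, 0.115 and 0.536). Hoxd10 and Hoxd11 were at −1.19 and −1.65 and missed the threshold (edgeR adjusted p = 0.0617 and 0.0925). Paralogue number 10 summed to 7.89 and 6.15 FPKM in CD HO embryos, against 18.7 and 19.8 FPKM in CD HE, with no overlap. Summed somite markers stood at 26.3 and 32.1 FPKM in CD HO embryos, against 77.7 and 81.2 FPKM in CD HE.

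**Figure D3:**
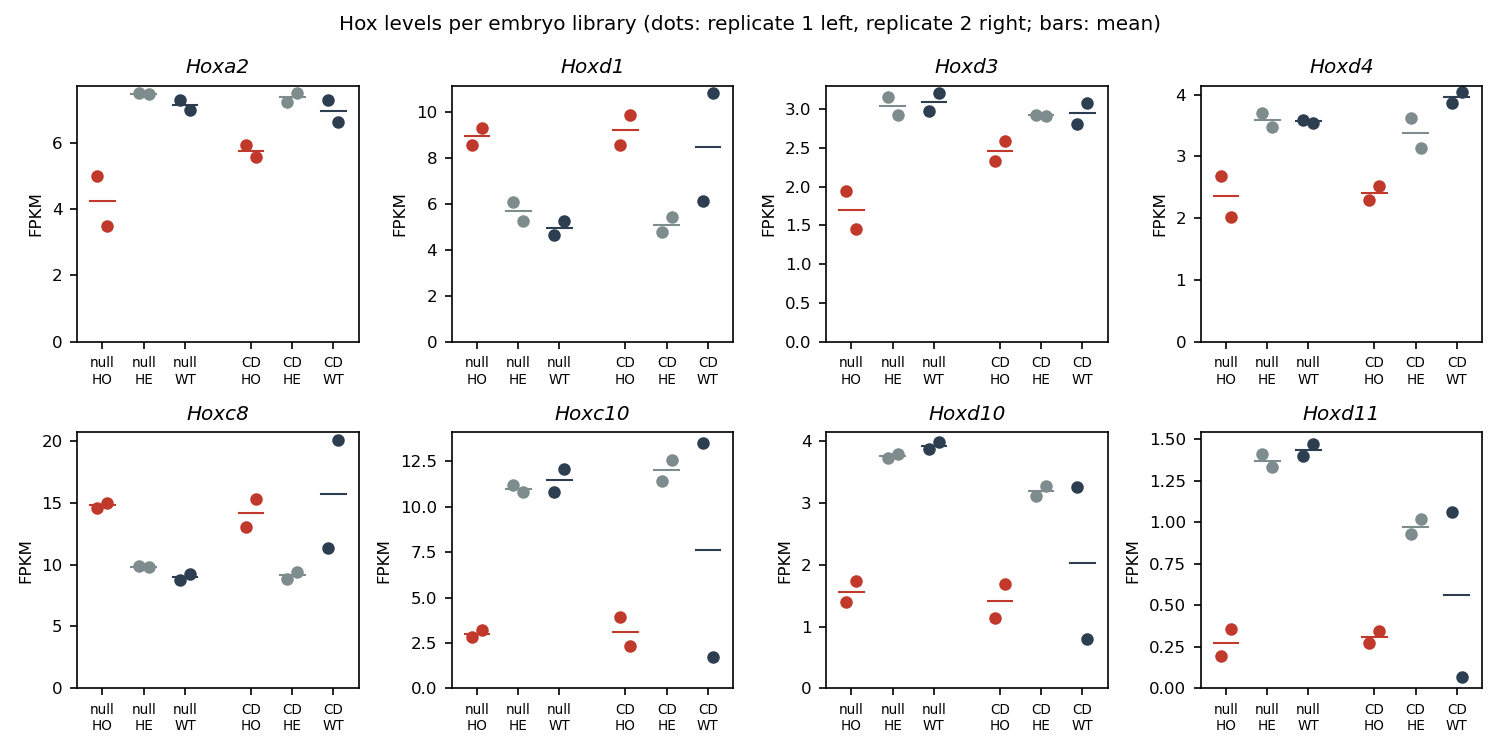
Levels in FPKM (vertical axis, from 0) of 8 Hox genes in each embryo library (points; replicate 1 left, replicate 2 right; bars are group means) of null and CD HO, HE and WT embryos. Hoxc10 is at 2.31 to 3.93 FPKM in the 4 HO libraries and at 1.7 FPKM in CD WT replicate 2, and at 10.8 to 13.5 FPKM in the other 7 libraries.

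The HO effect of the CD line was set against that of the null line in the same fit. By edgeR 0 of 35 members differed (background 0.0208%), with 9 under an unadjusted p of 0.05 and 1 called by DESeq2 (background 0.992%). The smallest p belonged to Hoxc8, with a difference of −0.87 (95% interval −1.46 to −0.29, edgeR adjusted p = 0.243), Hoxb7 (−0.60) and Hoxd3 (0.60). The interval for Hoxc10 was −1.17 to 2.48, so a difference in either direction is not bounded closely. Hoxc8 and Hoxb7 moved with the WT library used: both were at −0.39 without CD WT replicate 2 (edgeR adjusted p = 0.554 and 0.634), and at −1.23 and −0.78 without CD WT replicate 1 (edgeR adjusted p = 0.000392 and 0.0186). With HE in place of WT in both lines they were at 0.03 and −0.06 (edgeR adjusted p = 0.996 and 0.982). Hoxd3 was at 0.67, 0.53 and 0.59 in the same 3 fits. Without CD WT replicate 2 and without null HO replicate 2 the count stayed 0 by edgeR (background 0.0248% and 0.0745%). In these fits 4 and 11 members were under an unadjusted p of 0.05, for which no background was counted. Without CD WT replicate 1 the count was 9 (background 5.19%), and without null HO replicate 1 it was 2 (background 4.99%). With HE in place of WT in both lines the count was 0 by edgeR (background 0.0104%). In that fit 2 members were under an unadjusted p of 0.05.

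Heterozygous embryos showed 0 called Hox genes in either line by edgeR. In null HE against WT embryos edgeR called 0.0104% of all genes. Of the Hox genes 0 were under an unadjusted p of 0.05 and 0 were called by DESeq2, with log2 fold changes from −0.17 to 0.2. In CD HE against WT embryos edgeR called 0 (background 0.0156%) and DESeq2 called 1 (background 0.271%), and without CD WT replicate 1 edgeR called 13 (background 4.2%). With all libraries 12 were under an unadjusted p of 0.05, a threshold for which no background was counted. Between the WT groups, CD WT against null WT, edgeR called 0 (background 0.0312%) and DESeq2 called 6 higher (background 2.63%). Without CD WT replicate 1 edgeR called 16 (background 8.03%). With all libraries an unadjusted p under 0.05 was met by 14, again with no background counted. Hoxc10 had 11.2 and 10.8 FPKM in null HE embryos and 11.4 and 12.6 FPKM in CD HE embryos, and 10.8, 12.1 and 13.5 FPKM in the WT embryos other than CD WT replicate 2.

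Genes that act with or upstream of Hox genes were counted from lists. Over all genes 16.2% were higher and 16.5% lower in null HO against WT embryos, and 6.92% and 9.14% in CD HO against WT embryos. Of 9 TALE homeodomain cofactors, which bind DNA together with Hox proteins, 0 rose and 6 fell in null HO embryos, where 16.5% of all genes fell. Meis3 had 5.1 and 3.93 FPKM in null HO embryos, against 9.23 and 9.22 FPKM in null WT (−1.03, SE 0.13, edgeR adjusted p = 0.000163), and Pbx2 had 37 and 35.1 FPKM, against 53.9 and 52.5 FPKM in null WT (−0.56, SE 0.067, edgeR adjusted p = 9.2e-05). Meis1 fell by 0.55. In CD HO against WT embryos 0 rose and 3 fell, where 9.14% of all genes fell, and without CD WT replicate 2, 0 rose and 5 fell, where 8.67% did. Meis3 fell by 0.73 against CD WT (edgeR adjusted p = 0.00363), and was at 5.07 and 6.24 FPKM in CD HO embryos, against 10 and 8.64 FPKM in CD WT.

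Of 15 caudal genes and posterior signals 8 rose and 2 fell in null HO embryos, with a median of 0.49, where 16.2% of all genes rose and 16.5% fell. Cdx2, an activator of central Hox genes, had 24.2 and 23.2 FPKM in null HO embryos, 9.9 and 9.43 FPKM in null HE and 8.7 and 9.53 FPKM in null WT (1.38, SE 0.22, edgeR adjusted p = 0.000715). Lin28a, an RNA-binding protein of early embryonic cells, had 271 and 268 FPKM in null HO embryos, against 141 and 138 FPKM in null WT (0.95, SE 0.13, edgeR adjusted p = 0.00028). Gdf11, a signal for the change from trunk to tail, had 8.6 and 7.21 FPKM in null HO embryos, against 12 and 11.8 FPKM in null WT (−0.59, SE 0.09, edgeR adjusted p = 0.00047). Sall4 rose by 0.82. In CD HO against WT embryos 0 rose and 1, Gdf11, fell by 0.34 (edgeR adjusted p = 0.0244; all genes 6.92% and 9.14%). Without CD WT replicate 2, 3 rose and 1 fell (all genes 6.02% and 8.67%), with Cdx2 at 0.64 and Lin28a at 0.57 (edgeR adjusted p = 0.0122 and 0.000161), and against CD HE embryos 7 rose and 1 fell (all genes 10.2% and 11.9%), with Cdx2 at 1.22.

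Of 18 genes of retinoic acid synthesis, breakdown and reception 6 rose and 6 fell in null HO embryos, where 32.7% of all genes were called. Crabp2, which carries retinoic acid to its nuclear receptors, had 74.6 and 39.9 FPKM in null HO embryos, against 214 and 218 FPKM in null WT (−1.91, SE 0.22, edgeR adjusted p = 6.79e-05), and 92.5 and 81.8 FPKM in CD HO embryos, against 196 and 139 FPKM in CD WT (−0.94, SE 0.21, edgeR adjusted p = 0.011). HO and WT libraries did not overlap in either line. Crabp1, Rarb (a receptor) and Aldh1a3 (a synthetic enzyme) fell by 0.97, 0.65 and 2.43 in null HO embryos. The retinoic acid genes named here are all among the 6 that fell, and none of the 6 that rose is named. Of 7 hindbrain regulators of Hox genes 2 rose and 3 fell. Egr2, which activates Hoxa2 and Hoxb2 in the hindbrain, had 2.69 and 2.06 FPKM in null HO embryos, against 0.534 and 0.682 FPKM in null WT (1.96, SE 0.33, edgeR adjusted p = 0.000895), while Hoxa2 fell and Hoxb2, at 1.77 and 1.66 FPKM against 1.37 and 1.53 FPKM in null WT, was not called. In CD HO embryos Egr2 had 2.74 and 2.92 FPKM, against 0.957 and 2.35 FPKM in CD WT and 0.621 and 0.677 FPKM in CD HE.

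Of 32 Polycomb factors 8 rose and 6 fell in null HO embryos, where 32.7% of all genes were called, and 1 rose and 2 fell in CD HO embryos, where 16.1% were. Bmi1, a subunit of Polycomb repressive complex 1, had 15.1 and 13.5 FPKM in null HO embryos, against 24.1 and 23.4 FPKM in null WT (−0.73, SE 0.1, edgeR adjusted p = 0.000279), and 14.2 and 12.1 FPKM in CD HO embryos, against 21.6 and 17 FPKM in CD WT (−0.55, SE 0.1, edgeR adjusted p = 0.00446). Rybp, a partner of the same complex, rose by 0.74 in null HO embryos. Of 20 Trithorax factors and demethylases of lysine 27 of histone H3, 3 rose and 3 fell in null HO embryos and 1 rose and 3 fell in CD HO embryos, shares near those of all genes. The medians over both lists lay between −0.06 and 0.07 in the 2 lines, against 0.015 and 0.0024 over all genes. Of 12 tested noncoding RNAs of the clusters 0 rose and 2 fell in null HO embryos (Hoxb5os −0.67 and Hoxb3os −0.56, edgeR adjusted p = 0.0115 and 0.02), and 0 rose and 1 fell in CD HO embryos (Hoxb5os −0.82, edgeR adjusted p = 0.00792). Hoxb5os had 26.4 and 17.1 FPKM in null HO embryos, against 33.1 and 36.3 FPKM in null WT. Of 25 tested genes beside the clusters 8 rose and 6 fell in null HO embryos, and 7 rose and 2 fell without null HO replicate 2. Among them Evx1, a homeobox gene next to Hoxa13 that was chosen after its values were seen, had 7.93 and 7.04 FPKM in null HO embryos, against 3.3 and 3.26 FPKM in null WT (1.19, SE 0.22, edgeR adjusted p = 0.00154), while Hoxa13 itself had 0.655 and 1.39 FPKM, against 0.844 and 1.09 FPKM in null WT. Without null HO replicate 2 the counts, rises before falls, were 0 and 7 for cofactors, 7 and 1 for caudal genes, 4 and 4 for retinoic acid genes, 2 and 2 for hindbrain regulators, 7 and 6 for Polycomb factors, 3 and 5 for Trithorax factors and 0 and 1 for the noncoding RNAs. In that fit 11.6% of all genes rose and 13.6% fell. In CD HO embryos the counts were 3 and 1 for retinoic acid genes, 5 and 2 without CD WT replicate 2, and for Polycomb factors 5 and 2 without that library.

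In WT yolk sacs the Hox genes lay far below WT embryos. In 1 fit of all libraries 34 of 36 tested members were lower and 0 higher in WT yolk sacs than in WT embryos. The background was 37.4% of genes lower and 71.7% called either way. In the filter of yolk sacs alone 21 members passed. Members that entered this fit only through embryo libraries had to be lower, so their part of the 34 is no result. Of the 21, all but Hoxc8 and Hoxc13 were lower. Tissue and deposited table cannot be told apart in this comparison. On the scale of that fit, Hoxb9 averaged 0.339 ± 0.211 FPKM in WT yolk sacs and 35.2 ± 7.1 FPKM in WT embryos (SD, n = 4 each; log2 difference −6.86, SE 0.19, edgeR adjusted p = 2.89e-16). Hoxd1 and Hoxd11 had no count in any WT yolk sac, where 3 counts would be 0.0784 to 0.082 FPKM of Hoxd1 and 0.0347 to 0.0363 FPKM of Hoxd11. The smallest differences among members called were Hoxb5 (−1.86) and Hoxb2 (−1.96), and Hoxb4, Hoxb6, Hoxb7 and Hoxb8 held 0.739 to 2.18 FPKM in the 4 WT yolk sacs.

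Hoxc8 was the exception at an appreciable level. It averaged 12.2 ± 3.51 FPKM in WT yolk sacs and 11.1 ± 4.71 FPKM in WT embryos (SD, n = 4 each), with a log2 difference of 0.16 (95% interval −0.2 to 0.51, edgeR adjusted p = 0.417). These means join 2 lines that differed. Scaled within each tissue, null WT held 10.2 and 15.4 FPKM in yolk sacs and 8.73 and 9.25 FPKM in embryos. CD WT held 9.49 and 8.53 FPKM in yolk sacs and 11.3 and 20.1 FPKM in embryos, the last in CD WT replicate 2. The other member not called, Hoxc13, stood at 0.0731 ± 0.02 FPKM in WT yolk sacs and 0.0608 ± 0.0442 FPKM in WT embryos. Neighbours of Hoxc8 in the cluster were far lower in WT yolk sacs, Hoxc6 at 2.41, 4.67, 2.19 and 1.58 FPKM and Hoxc9 at 0.665, 1.13, 0.739 and 0.26 FPKM, against 10.2, 15.4, 9.49 and 8.53 FPKM of Hoxc8.

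**Figure D4:**
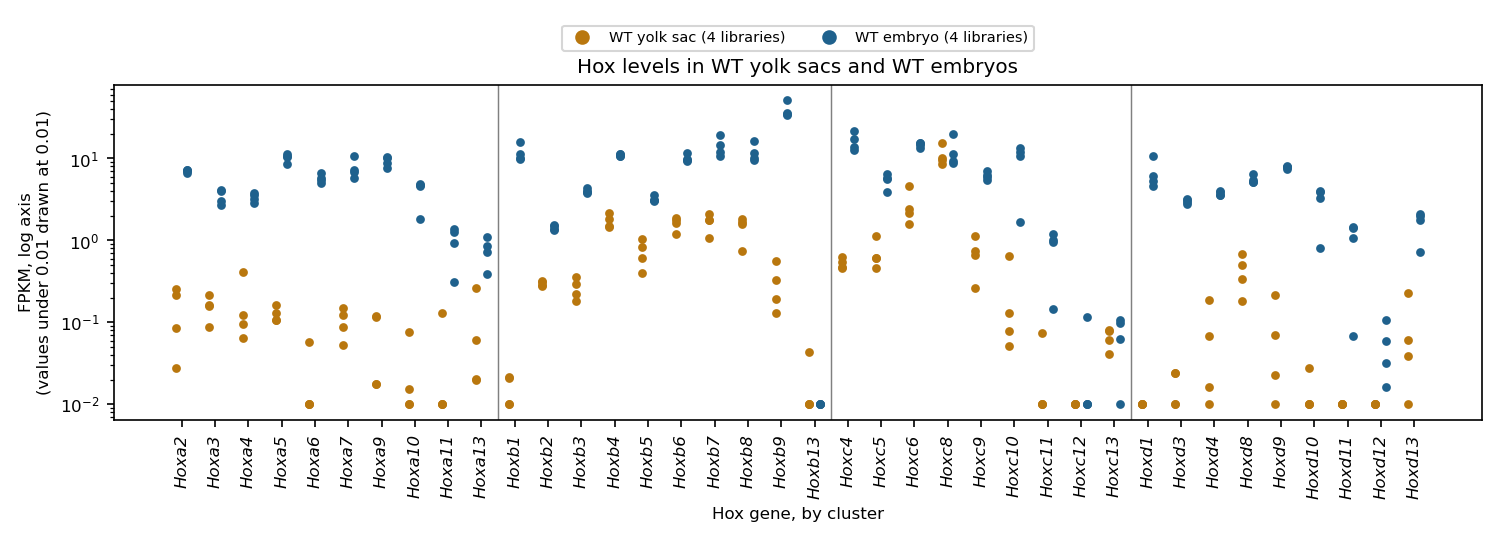
Levels (FPKM, log axis; values under 0.01 drawn at 0.01) of the Hox genes shown, ordered by cluster, in 4 WT yolk sac and 4 WT embryo libraries (points). Hoxc8 is the gene whose yolk sac points, 8.53 to 15.4 FPKM, overlap embryo points at over 1 FPKM.

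In null HO yolk sacs Hoxc8 was the only one of 21 tested members called, 0 higher and 1 lower (background 6.27%, with 3.97% lower). It had 3.75 and 5.38 FPKM in null HO yolk sacs, 11.2 and 11.8 FPKM in null HE and 10.2 and 15.4 FPKM in null WT (−1.49, SE 0.25, edgeR adjusted p = 0.00693). Both HO libraries lay below all HE and WT libraries, and the difference from null HE was −1.33 (SE 0.25, edgeR adjusted p = 0.00969; background 8.19%). Hoxc6 and Hoxc9, on either side of Hoxc8, had 1.9 and 1.26 FPKM and 0.327 and 0.222 FPKM in null HO yolk sacs, against 2.41 and 4.67 FPKM and 0.665 and 1.13 FPKM in null WT, without passing the test (−1.16 and −1.69, edgeR adjusted p = 0.0703 and 0.157). Beside these values, visceral endoderm markers were lower in null HO than in null WT yolk sacs for 4 of 10, with summed levels of 8190 and 6690 FPKM, against 9550 and 8860 FPKM in null WT. Extraembryonic mesoderm markers were lower for 2 of 8, at 160 and 176 FPKM in null HO yolk sacs, against 345 and 496 FPKM in null WT. Parietal endoderm markers were higher for 2 of 5, and of 8 blood progenitor and leukocyte markers 2 were higher and 1 lower. Their part in the Hoxc8 difference was not tested. DESeq2 called 2 members lower (background 9.44%). The count was 0 when null WT replicate 2 was left out (background 0.868%), with Hoxc8 at −1.17 (edgeR adjusted p = 0.0715), and 0 when null HO replicate 1 was left out (background 0.896%), with Hoxc8 at −1.26 (edgeR adjusted p = 0.079); 3 and 5 members were then under an unadjusted p of 0.05.

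In CD HO yolk sacs 0 of 21 members were called by edgeR (background 3.15%), with 4 under an unadjusted p of 0.05 and 1 called lower by DESeq2 (background 7.47%). Hoxc8 had 6.12 and 4.46 FPKM in CD HO yolk sacs, 10.4 and 7.02 FPKM in CD HE and 9.49 and 8.53 FPKM in CD WT (−0.76, 95% interval −1.31 to −0.22, edgeR adjusted p = 0.115). Both HO libraries were again below all HE and WT libraries. In the same comparison 3 of 10 visceral endoderm and 1 of 8 extraembryonic mesoderm markers were lower, and extraembryonic mesoderm markers summed to 160 and 150 FPKM in CD HO yolk sacs, against 292 and 254 FPKM in CD WT. Their part in the Hox values was not tested. The other values of smallest p were Hoxd13 (4.02, SE 1.1, edgeR adjusted p = 0.0759), Hoxd8 (1.35, edgeR adjusted p = 0.132) and Hoxa9 (2.55, edgeR adjusted p = 0.183). Hoxd13 rested on 0.356 and 0.361 FPKM in CD HO yolk sacs, against 0 and 0.0392 FPKM in CD WT.

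The HO effects of the lines in yolk sacs did not differ by the edgeR test for any member, 0 of 21 (background 0.0282%). Under an unadjusted p of 0.05 there were 2, and DESeq2 called 0. For Hoxc8 the CD effect minus the null effect was 0.73 (95% interval −0.04 to 1.5). HE against WT yolk sacs gave 0 calls in the null line and 0 in the CD line by edgeR (background 0 in each). In each line 0 were under an unadjusted p of 0.05 and 0 were called by DESeq2. CD WT against null WT yolk sacs gave 0 calls by edgeR (background 0.0451%), 5 under an unadjusted p of 0.05 and 0 by DESeq2.

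**Figure D5:**
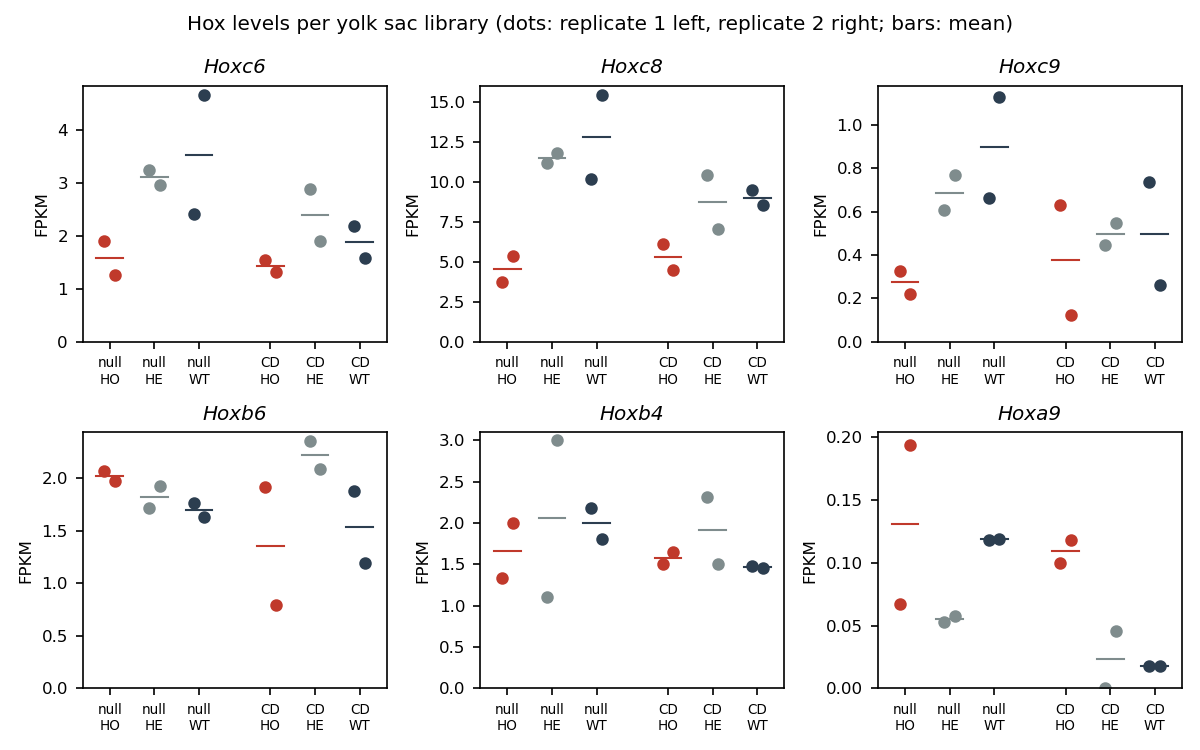
Levels in FPKM (vertical axis, from 0) of 6 Hox genes in each yolk sac library (points; replicate 1 left, replicate 2 right; bars are group means) of null and CD HO, HE and WT yolk sacs. Hoxc8 is at 3.75 to 6.12 FPKM in the 4 HO libraries and at 7.02 to 15.4 FPKM in the 8 HE and WT libraries.

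Hoxc8 therefore had opposite signs in the 2 tissues of null HO conceptuses, −1.49 in yolk sacs and 0.72 in embryos. In the fit of all libraries the null HO effect in yolk sacs minus that in embryos was −2.25 (SE 0.35, edgeR adjusted p = 0.000636), against a background of 10.1% of genes called for this difference, and it kept its call in all 16 alternatives. The same difference in the CD line was −0.62 (95% interval −1.34 to 0.1, edgeR adjusted p = 0.369; background 2.94%). In CD embryos Hoxc8 was at 13 and 15.3 FPKM in HO, 8.86 and 9.43 FPKM in HE and 11.3 and 20.1 FPKM in WT.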

How the data were processed

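Messenger RNA libraries were made with the KAPA mRNA HyperPrep kit and sequenced on a NovaSeq6000, per the labels' protocols. The submitters' processing notes name fastp 0.22.0, HISAT2 2.2.1, featureCounts 2.0.1, DESeq2 1.32.0 and mm10. The authors deposited 1 table per tissue with raw read counts and FPKM per gene; the deposited FPKM equal count per gene length per total count within a relative tolerance of 0.001.

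Counts were tested with edgeR 4.0.16 (quasi-likelihood F-test, TMM, filterByExpr with a minimum count of 10, R 4.3.3) over the 12 libraries of a tissue with 1 coefficient per group, and over all 24 for tissue comparisons. Genes tested numbered 19215 in embryos, 17755 in yolk sacs and 20543 together. Called means a Benjamini-Hochberg adjusted p under 0.05 over all genes. Backgrounds are shares of all genes called in this way. The share of all genes under an unadjusted p was not counted, so counts of Hox genes at that threshold have no background. Printed levels are FPKM from the counts and TMM-scaled totals. The code was tested on simulated data. Replicates differed by more than sampling noise (chi-square per degree of freedom 2.81 to 28.4). Same-numbered replicates did not deviate together (correlations −0.122 to 0.175), so numbers were not taken as pairs. DESeq2 1.42.0 (R), an unfiltered fit, a replicate block, a sex term, fits of the compared groups alone, leaving out each library, and HE in place of WT were tried; the last was added after the data were seen.

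Some genes are not reported here, though counts over lists include them. The members and lists were chosen with earlier results of these data known. Named were Setd2, every called Hox gene of an HO comparison (the 8 of smallest p each way in full), up to 4 called Hox genes each way in other comparisons, the 4 of smallest p where none passed, and up to 4 called genes of other lists.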

Additional observations from a re-analysis of the deposited data

Results flagged for a closer look

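Results are given here where the HO effect differed between the tissues by a test of the difference itself, as yolk sac minus embryo in the fit of all 24 libraries. In the null line these were Hoxc8 (−2.25, SE 0.35, edgeR adjusted p = 0.000636; −1.49 in yolk sacs and 0.72 in embryos) and Hoxd4 (−5.72, SE 1.5, edgeR adjusted p = 0.026). Hoxd4 had 0 and 0 counts in null HO yolk sacs, against 11 and 4 in null WT yolk sacs, so its fitted value depends on the prior count and is no bound. In the CD line they were Hoxb9 (1.95, SE 0.49, edgeR adjusted p = 0.0391; 1.3 in yolk sacs and −0.62 in embryos), Hoxb7 (1.28, SE 0.33, edgeR adjusted p = 0.0461; 0.59 and −0.69) and Hoxa9 (2.7, SE 0.71, edgeR adjusted p = 0.0462; 2.55 and −0.15). Of 16 alternatives, Hoxd4 lost its call in 6, at −6.28 to −3.77. Hoxb9 lost its call in 9, at 0.97 to 2.35, and Hoxb7 in 9, at 0.14 to 1.72, with both lowest values those of HE in place of WT. Hoxa9 lost its call in 11 while its value stayed at 2.08 to 2.83. Hoxa9 stood at 0.1 and 0.118 FPKM in CD HO yolk sacs, against 0.0179 and 0.0175 FPKM in CD WT yolk sacs, where it had 2 and 2 counts. In CD WT embryos Hoxb9 stood at 36.3 and 51.1 FPKM and Hoxb7 at 14.8 and 19.4 FPKM, the higher in replicate 2. In the CD line HO against WT coincides with sex, in reverse directions in the 2 tissues. The tissue difference of that line and sex cannot be told apart.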

How the results depend on the processing

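Counts of Hox genes called moved with the setting as follows, with the share of all genes called in the same fit in brackets. DESeq2 called 1 in CD HE against WT embryos (0.271%), 1 for the line difference in embryos (0.992%), 6 in CD WT against null WT embryos (2.63%), 2 in null HO (9.44%) and 1 in CD HO (7.47%) yolk sacs, and 5 for each tissue difference (null 14.9%, CD 7.42%). Without a filter on low counts edgeR called 19 in null HO (17.9%), 9 in CD HO (10.3%) and 11 in CD HE (1.9%) embryos, 6 for the line difference (2.59%), 16 between WT embryos (3.54%), 3 in null HO (6.18%) and 2 in CD HO (5%) yolk sacs, and 7 (7.13%) and 5 (3.41%) for the null and CD tissue differences. HE in place of WT, added after the data were seen, gave 9 in CD HO embryos (22.1%) and 1 for each tissue difference (null 11.7%, CD 5.22%). A sex term gave 0 in CD HO embryos (5.79%) and 1 for the CD tissue difference (0.399%), for which the fit of the compared groups alone also gave 1 (0.404%). The replicate block gave 1 for the CD tissue difference (2.75%), against 3 without it (2.94%); samples share only a number, and the block moved no other count by over 1.5 times. Leaving out 1 library at a time gave 5 to 11 in null HO (18.1% to 31.3%), 1 to 10 in CD HO (6.3% to 14.7%) and 0 to 13 in CD HE (0.0099% to 4.2%) embryos, 0 to 9 for the line difference (0.0149% to 5.19%), 0 to 16 between WT embryos (0.00992% to 8.03%), 0 to 1 in null HO yolk sacs (0.868% to 3.19%), and 1 to 2 (4.55% to 8.74%) and 0 to 2 (0.768% to 6.29%) for the null and CD tissue differences. The causes were not tested. Of 284 alternatives over 22 named gene results, 208 kept the call, 76 lost it and 0 changed sign. These results are those called in the main fit, so they do not cover genes that were not called. In CD HO against WT embryos Hoxd11 was at −1.79 without CD WT replicate 2 and at 2.13 without CD WT replicate 1. Hoxc10 was at −2.11 and 0.88 in the same fits. With 2 libraries a group, 734 to 1836 Hox counts per yolk sac library limit what can be seen there.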
